A study of Mus musculus with 360 samples.

Results

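H2-aa and Cd74 encode parts of the MHC class II pathway, in which antigen-presenting cells display peptides of endocytosed protein to CD4+ T cells. H2-aa gives the alpha chain of the I-A class II molecule. Cd74 is the invariant chain, which binds newly made class II molecules, covers their peptide groove and directs them to endosomes, and which also serves at the cell surface as a receptor for the cytokine MIF. Dendritic cells, B cells and many macrophages carry class II, its genes are switched on together by the coactivator CIITA, and interferon gamma raises CIITA in other cell types. Each gene had 1 probe, matched by its symbol with case ignored, so the pair made up 2 of the 3154 probes in the table, which cover 2756 genes. The pair was picked on its measured changes from control in these same data. These changes are therefore given as descriptions, with standard errors and no tests.

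The mice were 9-week-old females of the B6D2F1/Crl (BDF-1) stock, hybrids with 1 parent of the C57BL/6 and 1 of the DBA/2 strain. One set was exposed to 1,2-dichlorobenzene (1,2-DCB) at 1, 10, 30, 100 or 250 ppm and another to 1,4-dichlorobenzene (1,4-DCB) at 1, 10, 50, 150 or 400 ppm, each with its own 0 ppm control animals. These isomers carry their chlorines on neighbouring and on opposite carbons of the ring. Liver, kidney, heart, ovary and lung were taken on study day 5 and kept in RNAlater, and each library came from 1 tissue of 1 animal. RNA was measured with TempO-Seq on the mouse S1500+ panel, in which a pair of oligos ligated on its target transcript is counted by sequencing.

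The submitters marked 326 of 360 libraries as used, and the comparisons rest on those, in 60 groups of one tissue, compound and concentration. The other 34 libraries, 21 from kidney, 11 from liver and 2 from lung, had been set aside for quality, 16 of the kidney ones for potential tissue contamination. Library totals ran between 4341679 and 13091634 counts in ovary, and between 7817849 counts in the shallowest heart and 46480385 in the deepest lung among the other tissues. The smallest deposited count for H2-aa in any used library was 58, and that for Cd74 was 902, both in heart. All Cd74 counts were multiples of 2, read here as the authors' attenuation factor. The labelled tissues carried their defining genes, with median CPM (counts scaled to a common library total) of 29676 for Apoa1 in liver, 1559 for Slc22a6 in kidney, 121858 for Tnnt2 in heart and 3705 for Inha in ovary, while the panel held no lung marker from the list used. All 5 comparisons of one compound in one tissue share the same control animals. In bulk tissue, fewer class II-bearing cells and less class II RNA per cell cannot be told apart.

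The stretch of DNA just before the H2-Aa start is printed because class II genes, Cd74 included, share a promoter module that includes a cyclic AMP response element-like box and a CCAAT box bound by NF-Y. The 150 bases before the start, from RefSeq on build GRCm38.p6, lie at chr17:34287824-34287973 on the minus strand and are upstream of the transcript. Capitals mark the matches to TGACG, found on both strands and overlapping as a palindrome, and to CCAAT, found on the opposite strand.
H2-Aa, 150 bases upstream: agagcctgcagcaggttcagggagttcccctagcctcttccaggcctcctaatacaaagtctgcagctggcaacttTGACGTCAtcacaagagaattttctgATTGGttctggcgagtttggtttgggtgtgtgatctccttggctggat
The TGACG matches began 74 and 71 bases before the start and the CCAAT match 48 bases before it. Over the same 150-base window, searching both strands, 24.5% of 32851 RefSeq promoters held CCAAT, 13.3% held TGACG and 3.65% held both. These matches describe the letters of the C57BL/6 reference and show nothing about binding in these tissues or about the DBA/2 copy of the gene.

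In control animals both genes were highest in lung, then ovary, then kidney, and lowest in liver and heart. H2-aa averaged 629 ± 110 CPM in lung, 217 ± 92.3 in ovary, 102 ± 10.9 in kidney, 52.8 ± 21.2 in liver and 52.3 ± 54.6 in heart among the 1,2-DCB controls (SD, n = 9 to 10, with 5 in kidney). Cd74 followed the same order, with 10177, 2391, 1196, 769.7 and 633 CPM. The 1,4-DCB controls also ran in that order, with H2-aa means of 568, 175, 116.7, 41.5 and 26.2 CPM. Lung and ovary controls did not overlap for either gene, and lung was the higher tissue in all 10 animals. Ovary and kidney overlapped for Cd74 in both control sets and for H2-aa in the 1,4-DCB set. For Cd74, ovary was the higher in 4 of 5 shared animals of the 1,2-DCB set and 4 of 6 of the 1,4-DCB set. Among the 1,2-DCB controls kidney overlapped liver, and liver overlapped heart. Among the 1,4-DCB controls liver overlapped heart, while kidney and liver did not overlap. These levels were scaled within each tissue. Scaling all tissues together left lung first but moved the others, so the order below lung depends on the scaling. Levels of H2-aa and Cd74 are not compared with each other, because each probe has its own efficiency.

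Liver showed a large reduction of both transcripts under 1,2-DCB. At 250 ppm H2-aa had 4.58 CPM in the lowest, 12.5 in the median and 21.6 in the highest of 6 exposed livers, against 33.1, 49.2 and 104 CPM in 9 control livers. The highest exposed liver was below the lowest control, and the control at 104 CPM, animal 4, stood above the other 8, which reached 60.7 CPM. The change was −2.03 ± 0.25 on the log2 scale (estimate ± SE), 24.5% of the control level. Cd74 had 78.2, 164 and 316 CPM in exposed livers, against 492, 697 and 1783 CPM in control livers, again with no overlap, and its change was −2.08 ± 0.24, or 23.7% of control. By comparison, 8.84% of the 2601 probes tested in liver had every exposed library below every control library at this concentration.

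The liver series was not a steady slope. H2-aa averaged 52.8 ± 21.2 CPM at 0 ppm (n = 9), 43.7 ± 2.59 at 1 ppm (n = 2), 29.7 ± 10.0 at 10 ppm (n = 4), 23 ± 4.27 at 30 ppm, 32.7 ± 10.5 at 100 ppm (n = 5 each) and 12.9 ± 7.02 at 250 ppm (n = 6). At 30 ppm the 5 exposed livers ran between 17.3 and 28.7 CPM of H2-aa and between 279 and 393 CPM of Cd74, and all lay below every control. At 100 ppm they ran between 19 and 44.7 CPM and overlapped the controls. Cd74 changed by −0.33, −0.88, −1.19, −0.79 and −2.08 (log2) over 1, 10, 30, 100 and 250 ppm, the same pattern as H2-aa with −0.27, −0.83, −1.20, −0.69 and −2.03. At 30 ppm 1.42% of probes showed every exposed liver below every control.

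**Figure D1:**
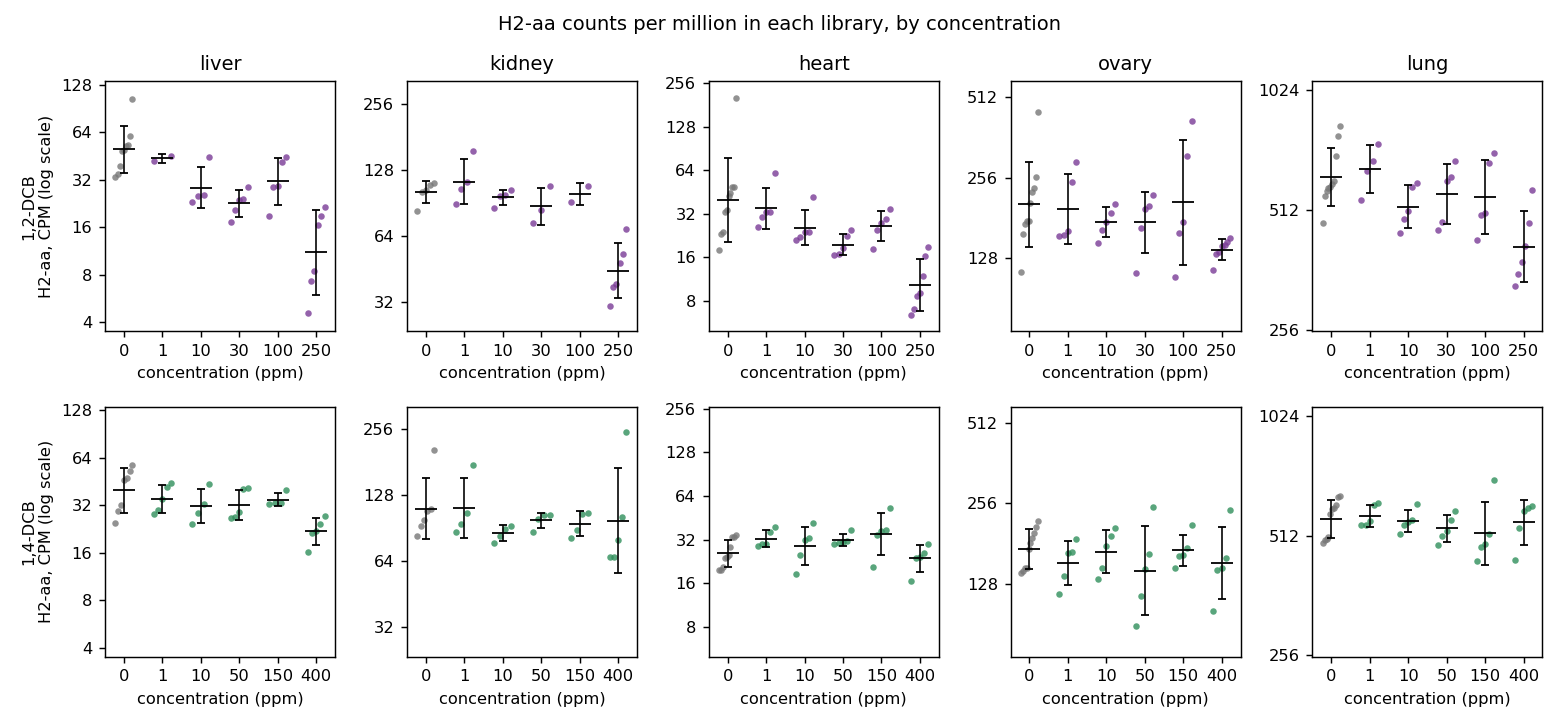
H2-aa in each used library. Each point is 1 animal's CPM on a log axis by concentration in ppm, for 5 tissues and both compounds. Grey points are 0 ppm controls, black bars are the mean of log2 values with 1 SD. Under 1,2-DCB at 250 ppm the exposed livers and kidneys lie below all their controls.

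Heart was the other tissue with a large difference under 1,2-DCB, and here 1 control animal set much of its size. At 250 ppm H2-aa had 6.43, 9.04 and 18.8 CPM (lowest, median and highest of 7 exposed hearts), against 18, 38.5 and 204 CPM in 10 control hearts. All but 1 exposed heart lay below every control. Cd74 had 96.9, 140.5 and 244 CPM in exposed hearts, against 277, 464 and 2242 CPM in control hearts, with no overlap, a pattern seen in 0.489% of heart probes. The changes were −2.21 ± 0.29 for H2-aa and −2.02 ± 0.26 for Cd74 (log2), or 21.7% and 24.7% of control. The highest control in both genes was animal 4. Without it the remaining control hearts ran between 18 and 49.3 CPM for H2-aa, and the changes at 250 ppm were −1.65 and −1.54, so the exposed hearts stayed far below.

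The lower concentrations in heart depended more on that animal. H2-aa changed by −0.50, −0.97, −1.39 and −0.95 (log2) at 1, 10, 30 and 100 ppm with animal 4 among the controls, and by 0.06, −0.40, −0.83 and −0.39 without it. Cd74 moved in parallel, at −0.36, −0.79, −1.19 and −0.85 with the animal and 0.12, −0.31, −0.71 and −0.37 without it. As in liver, 30 ppm lay lower than 100 ppm in either reading. Liver estimates moved less: without animal 4 H2-aa stood at −0.64, −1.0, −0.53 and −1.85 and Cd74 at −0.61, −0.92, −0.56 and −1.83 over 10, 30, 100 and 250 ppm.

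Animal 4 carried the highest class II level of the used controls in each of the 4 tissues where its library was used. Its H2-aa was 452 CPM in ovary, against 113.9 to 258 in the other control ovaries, and 832 CPM in lung, against 476 to 785. Summed probes of a macrophage and monocyte list were also high in this animal, at 1639 CPM in liver against 312 to 561 in the other controls and at 2456 CPM in heart against 822 to 1106. The summed leukocyte list stood at 243 CPM in its liver against 93.7 to 124.7, and at 208 CPM in its heart against 79.6 to 120. The part of these cells in its class II level was not tested. Each list sum adds CPM, here and below, so abundant probes weigh most. Lyz2 of the macrophage list averaged 346 CPM in 1,4-DCB control livers, where the list's sum had a median of 392 CPM. In 1,2-DCB control ovaries Lyz2 averaged 1546 CPM, beside a median sum of 1561 CPM.

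**Figure D2:**
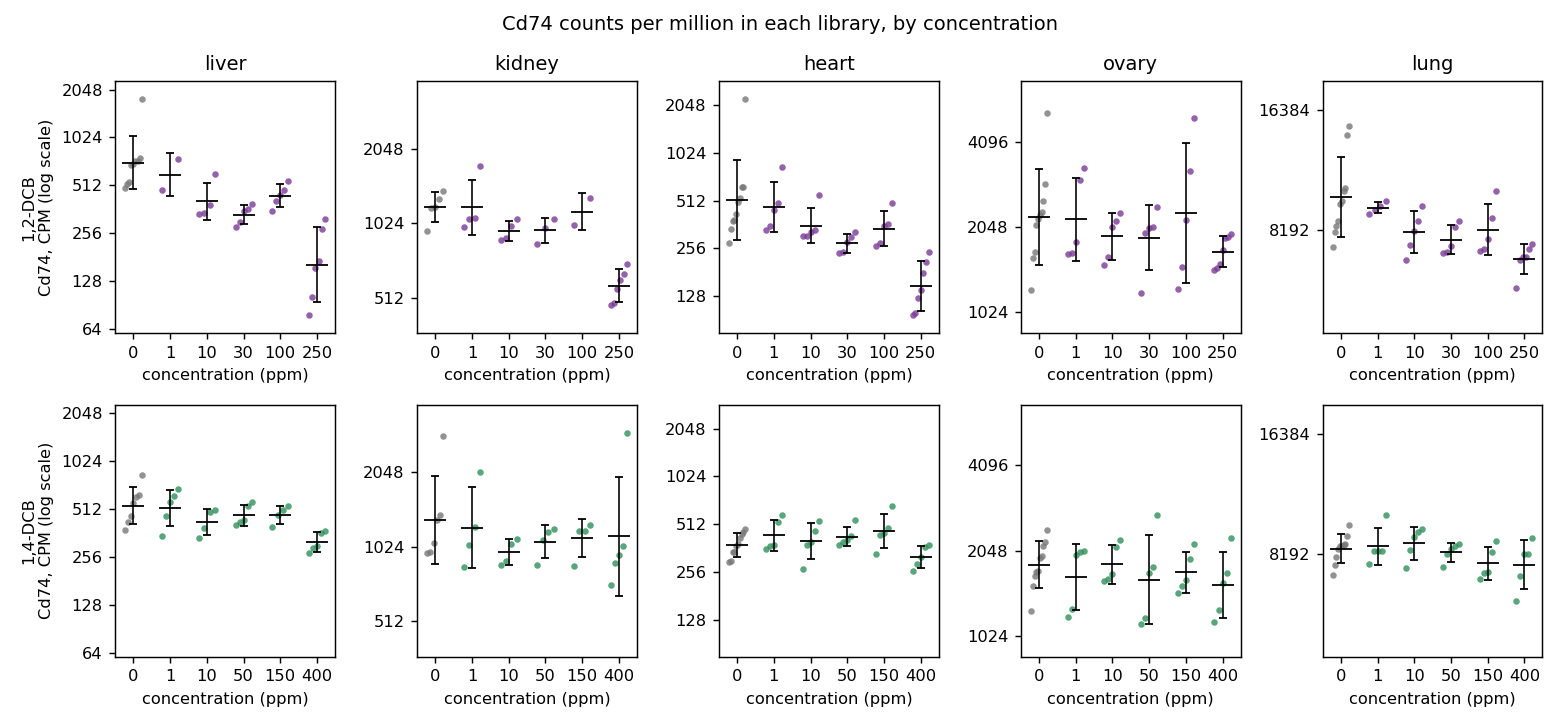
Cd74 in each used library, drawn as for H2-aa, with CPM on a log axis by concentration in ppm. In heart and liver the highest 0 ppm point of the 1,2-DCB panels, at 2242 and 1783 CPM, is the same animal.

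In the used kidneys both genes lay below their controls at the highest 1,2-DCB concentration. H2-aa had 30.5, 43.2 and 68.9 CPM (lowest, median and highest of 6 exposed kidneys) at 250 ppm, against 83.4, 101, 104, 108.6 and 111.3 CPM in the 5 control kidneys. Cd74 had 478, 581 and 703 CPM in exposed kidneys, against 952, 1176, 1189, 1278 and 1387 CPM in control kidneys. Neither gene overlapped between the groups, and 3.77% of kidney probes shared that pattern. The changes were −1.14 ± 0.24 and −1.05 ± 0.25 (log2), or 45.3% and 48.4% of control. At 1, 10, 30 and 100 ppm H2-aa changed by 0.18, −0.08, −0.21 and −0.03 and Cd74 by 0.03, −0.32, −0.31 and −0.06. Of the 10 control kidneys in this set 5 had been set aside, and with every deposited library included the changes at 250 ppm were −1.69 and −1.50. With those libraries H2-aa changed by −0.30, −0.59, −0.62 and −0.66 and Cd74 by −0.36, −0.73, −0.64 and −0.49 at 1, 10, 30 and 100 ppm, so the values below 250 ppm depend on which kidneys are included.

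Ovary and lung differed less in proportion. At 250 ppm H2-aa had 353, 417, 380, 330, 575 and 477 CPM in exposed lungs, against 476, 592 and 832 CPM (lowest, median and highest) in control lungs. Its change was −0.58 ± 0.11 (log2), 67% of control, and the groups overlapped at 575 CPM and 477 CPM. Cd74 had 5873, 7028 and 7583 CPM in exposed lungs, against 7455, 9641 and 14933 CPM in control lungs, a change of −0.55 ± 0.10. In ovary H2-aa had 115.2, 141.9 and 151.6 CPM in 7 exposed animals, against 113.9, 191 and 452 CPM in control ovaries, and Cd74 had 1450.3, 1698 and 1937 CPM, against 1224, 2223 and 5149 CPM. The ovary changes were −0.65 ± 0.20 and −0.50 ± 0.21, with the exposed ovaries inside the control range, and without animal 4 they were −0.46 and −0.29. At 1, 10, 30 and 100 ppm H2-aa changed by −0.10, −0.31, −0.28 and 0.10 in ovary and by 0.06, −0.26, −0.15 and −0.16 in lung. Cd74 changed by −0.07, −0.31, −0.31 and 0.13 in ovary and by −0.13, −0.32, −0.39 and −0.29 in lung.

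Under 1,4-DCB a clear reduction appeared in liver at 400 ppm. H2-aa had 16.2, 21.3, 21.9, 24.4 and 27.5 CPM in the 5 exposed livers, against 24.6, 46.2 and 57.9 CPM (lowest, median and highest) in 7 control livers. Cd74 had 268, 292, 298, 363 and 373 CPM in exposed livers, against 375, 557 and 841 CPM in control livers. The Cd74 groups did not overlap, with 7.23% of liver probes showing that pattern, and 1 exposed liver overlapped the controls for H2-aa. The changes were −0.90 ± 0.26 and −0.80 ± 0.25 (log2), or 53.8% and 57.5% of control. Between 1 and 150 ppm the liver changes lay between −0.36 and −0.21 for H2-aa and between −0.37 and −0.06 for Cd74.

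In heart, ovary and lung most animals exposed to 400 ppm 1,4-DCB lay inside the control range for both genes. Heart had 16.6, 24, 24.4, 25.7 and 29.6 CPM of H2-aa in exposed animals, against 19.5, 24.5 and 34.4 CPM in control animals, with changes of −0.12 for H2-aa and −0.26 for Cd74. Lung changed by −0.03 and −0.13 and ovary by −0.14 and −0.22. Without lung animal 502 H2-aa changed by 0.04, and without ovary animal 504 the ovary changes were −0.34 and −0.38. In kidney the changes were −0.04 and −0.13. There 3 of the 5 exposed animals lay below every control in both genes, and each side held 1 animal with far more class II than the rest. Exposed animal 505 had 249.8 CPM of H2-aa, against 66.7 to 102 CPM in the other exposed kidneys, and control animal 2 had 206 CPM. Without animal 505 the kidney changes were −0.58 and −0.69, and without control animal 2 they were 0.19 and 0.19. Leaving out exposed animal 501, 502 or 503 gave 0.10, 0.04 and 0.10 for H2-aa, so the sign in kidney depends on which single animal is included. At the lower concentrations of 1, 10, 50 and 150 ppm H2-aa in kidney changed by −0.01, −0.44, −0.24 and −0.29, and with control animal 2 left out the change at 10 ppm was −0.20. In heart the changes at these concentrations were above 0, between 0.19 and 0.47 for H2-aa and between 0.10 and 0.31 for Cd74. In ovary and lung they lay between −0.20 and 0.05 for both genes. Kidney animals 505 and 2 were also high in the summed macrophage list, at 627 CPM for animal 505 against 154.8 to 178 in its group and 984 CPM for animal 2 against 186 to 239 in its own.

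**Figure D3:**
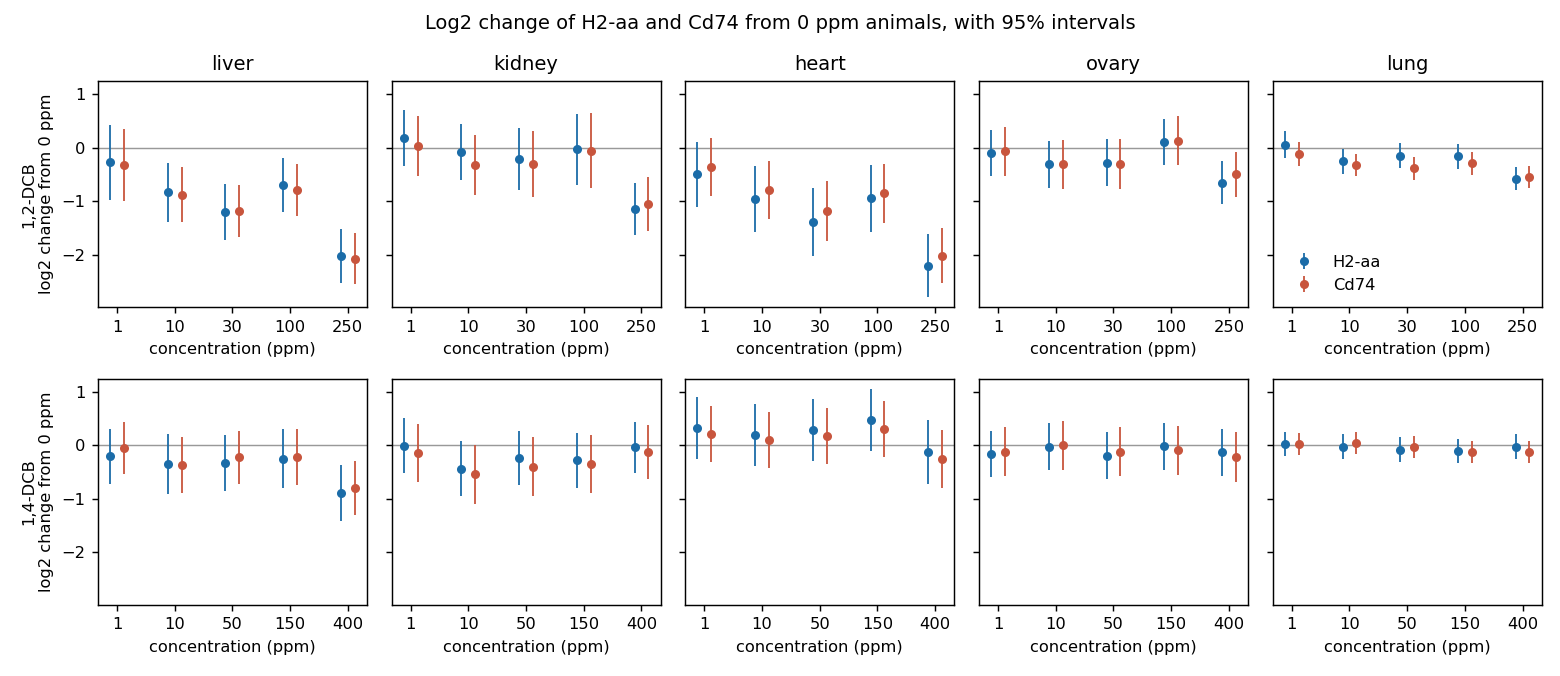
Change from the 0 ppm controls, log2 of exposed over control, for both genes at every concentration in ppm. Points are edgeR estimates and bars 95% intervals. The estimates of H2-aa and Cd74 lie close together in all 50 comparisons, and the lowest are heart and liver at 250 ppm 1,2-DCB.

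The log2 changes of H2-aa and Cd74 differed by at most 0.24 over the 50 comparisons, with a median distance of 0.09. The pair was picked on its changes, so this closeness is a description and not independent support. Between animals treated alike, which the choice of the pair did not use, the likeness was strong in liver, kidney, heart and ovary and weaker in lung. Deviations of log2 CPM from the group mean correlated with Pearson r of 0.90 in liver (rho 0.88, n = 61), 0.91 in kidney (rho 0.86, n = 51), 0.95 in heart (rho 0.92, n = 72) and 0.94 in ovary (rho 0.90, n = 72), and the permutation p was 1e-05 in each, the smallest the permutations can give. Leaving out the 2 libraries farthest from the median on the H2-aa axis left r at 0.87, 0.83, 0.92 and 0.92. In lung r was 0.39 and rho 0.32 (n = 70, permutation p of 0.005 and 0.01), and 0.44 without the 2 farthest libraries. Benjamini-Hochberg adjustment over the 5 tissues left these p-values at the same numbers as rounded here.

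**Figure D4:**
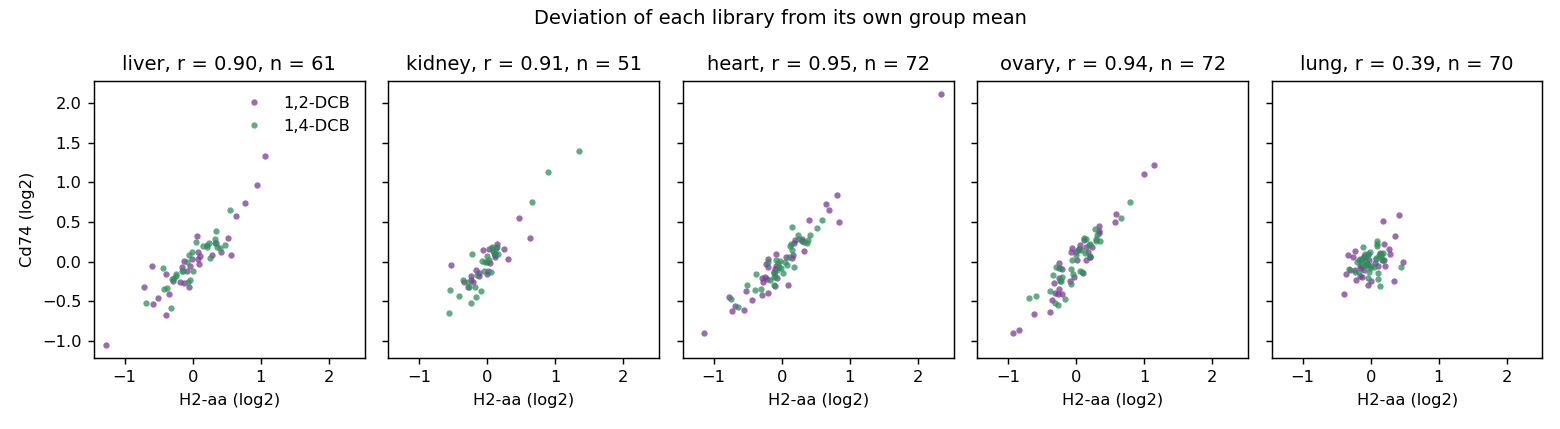
Within-group covariation of the pair. Each point is 1 library, with its H2-aa and Cd74 deviations from the mean log2 CPM of its own tissue, compound and concentration group on the axes. The points follow a line in 4 tissues, with r between 0.90 and 0.95, and scatter in lung, with r of 0.39.

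Genes were also ranked by how they varied with Cd74 between animals treated alike. By mean r with Cd74 over the 5 tissues, across 326 libraries and 2272 other probes, H2-aa came first at 0.82. After it came Ptprc, the pan-leukocyte phosphatase CD45, at 0.74, Coro1a, an actin regulator of leukocytes, at 0.69, C1qb, a complement chain made by macrophages, at 0.69, A130071D04RIK at 0.68 and Psmb8, an immunoproteasome subunit, at 0.67. Of other leukocyte genes, Tyrobp, a signalling adaptor, stood at 0.57, Ptpn6, a phosphatase, at 0.21 and Fcer1g, a chain of Fc receptors, at 0.01. Ctss, an endosomal protease, had a mean r of 0.63 with Cd74 and 0.70 with H2-aa. These are descriptions across libraries that share animals and depth.

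Set at matched concentrations, the isomers gave 20 differences in change (both genes, 5 tissues, 1 and 10 ppm), given as 1,4-DCB minus 1,2-DCB with a 95% interval. At 10 ppm in heart the difference was 1.15 (0.31 to 2.00) for H2-aa and 0.89 (0.13 to 1.64) for Cd74, where 1,4-DCB changed them by 0.19 and 0.10 and 1,2-DCB by −0.97 and −0.79. Without control animal 4 these differences were 0.59 (−0.02 to 1.21) and 0.41 (−0.14 to 0.96). At 1 ppm in heart they were 0.82 for H2-aa and 0.57 for Cd74, and 0.26 and 0.09 without animal 4. In lung at 10 ppm the Cd74 difference was 0.37 (0.08 to 0.66), and 0.29 (0.02 to 0.56) without animal 4. For H2-aa in lung at 10 ppm it was 0.23, and 0.18 (−0.14 to 0.50) without animal 4. With all used controls, 3 of the 20 intervals lay off 0, those of both genes in heart and of Cd74 in lung at 10 ppm. In liver at 10 ppm the differences were 0.48 (−0.29 to 1.24) for H2-aa and 0.50 (−0.22 to 1.23) for Cd74. In kidney the differences were −0.19 and −0.17 at 1 ppm and −0.36 and −0.22 at 10 ppm, in ovary −0.07 and −0.06 at 1 ppm and 0.28 and 0.31 at 10 ppm. The highest concentrations were 400 ppm for 1,4-DCB and 250 ppm for 1,2-DCB and are not matched. At those, H2-aa stood at 53.8% of control in liver with 1,4-DCB and 24.5% with 1,2-DCB.

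Of the genes that make, load or cut class II complexes, 6 probes of a 27-gene list were on the panel, and the rest of the list was not measured. The 6 were H2-dma, a chain of the peptide exchanger, Creb1, a factor of the class II promoter, the endosomal proteases Ctss, which trims the invariant chain, and Ctsd with 2 probes, and Lgmn, an asparagine endopeptidase. Few of those tested changed with H2-aa and Cd74. H2-dma was not among the probes tested in liver. Its median was 0.51 CPM in heart, 2.76 in ovary and 2.89 in lung among the 1,2-DCB controls, so it says little about class II loading. In liver at 250 ppm 1,2-DCB, 1 of 5 tested probes was higher and 0 lower (edgeR quasi-likelihood, Benjamini-Hochberg adjusted p under 0.05), where 25.1% of all probes were higher and 24.6% lower. That probe, of Ctsd, had 979 ± 92.2 CPM in exposed livers, against 449 ± 27.6 CPM in control livers (SD, n = 6 and 9), with an edgeR adjusted p of 1.11e-24. The other Ctsd probe, at 5.32 CPM in exposed and 3.97 CPM in control livers, did not pass (edgeR adjusted p = 0.0642). The count was 3 without control animal 4 and 2 without any of exposed animals 501, 506R, 507 or 508.

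In liver at 400 ppm 1,4-DCB, where 18% of probes were higher and 13.6% lower, Ctsd rose by 0.53 ± 0.06 (edgeR adjusted p = 2.18e-10) and Ctss fell to 54.2 ± 3.71 CPM, against 94.9 ± 18.8 CPM in control livers (edgeR adjusted p = 0.00649). Lgmn was also lower, at 4.64 against 7.05 CPM, giving 1 probe higher and 2 lower of 5. In heart at 250 ppm 0 of 6 probes passed, where 4.07% of all probes were higher and 4.81% lower, and in kidney 0 of 6, where 6.78% were higher and 4.95% lower. Counting edgeR p below 0.05 before adjustment gave 0 in both tissues, as did DESeq2. In lung at 250 ppm, where 17.6% of probes were higher and 15% lower, Ctsd was higher and Creb1 lower of 6, and 1 of these calls was lost without animal 501 or 506R. In ovary at 250 ppm, where 8.22% of probes were higher and 7.7% lower, Ctss was the 1 of 6 that passed, and without animal 503 its change was 0.29 (edgeR adjusted p = 0.15).

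Mif, the cytokine that binds Cd74, rose in liver and lung. In liver at 250 ppm 1,2-DCB it had 619 ± 190 CPM in exposed animals, against 434 ± 76.7 CPM in control animals, and in lung 269 ± 40.0 CPM against 186 ± 17.2 CPM, with edgeR adjusted p of 0.00233 and 9.43e-08. Cxcr4, a chemokine receptor that pairs with Cd74 in MIF signalling, fell in lung to 29.7 ± 6.41 CPM, against 45.6 ± 5.14 CPM in control lungs (edgeR adjusted p = 3.75e-05). Mif did not pass in heart at 0.24 ± 0.10, in kidney at 0.18 ± 0.11 or in ovary at 0.05 ± 0.09 (log2, edgeR adjusted p of 0.126, 0.319 and 0.762). App, which also binds Cd74, changed by 0.22 in liver and by −0.31 in lung (edgeR adjusted p of 0.0299 and 0.0263), and both calls were lost when certain single animals were left out, with an edgeR adjusted p of up to 0.18 in liver and 0.0814 in lung.

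Interferon gamma targets and receptors were lower in some of the same comparisons. Gbp3, an interferon-induced GTPase, fell in kidney at 250 ppm 1,2-DCB to 88.4 ± 9.61 CPM, against 242 ± 36.5 CPM in control kidneys, a log2 change of −1.45 ± 0.14 (edgeR adjusted p = 2.47e-10). It was 1 of the 2 lower probes among 8 tested there, where 4.95% of all probes were lower, the other, Gbp2, losing its call without any 1 of several animals (controls 2, 3, 7 or 8, or exposed animals 503, 505, 506R, 507 or 508). In lung at 250 ppm 4 of 9 probes of that list were lower and 0 higher, where 15% of all probes were lower and 17.6% higher, among them Gbp3 at −0.61 and Ifngr1, a chain of the interferon gamma receptor, at −0.56 (edgeR adjusted p of 0.000936 and 2.77e-10). In liver at 400 ppm 1,4-DCB 5 of 9 were lower, where 13.6% of all probes were, again with Gbp3, at −0.83, and Ifngr1, at −0.51 (edgeR adjusted p of 0.00423 and 0.0117).

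MHC class I genes, which present peptides from inside the cell to CD8+ T cells, were lower beside H2-aa and Cd74 in several tissues. At 250 ppm 1,2-DCB, of 12 class I pathway probes tested, 5 were lower in liver and 1 higher, 4 were lower and 0 higher in heart, 4 lower and 0 higher in ovary (2 lower without control animal 4), and 5 lower and 2 higher in lung, by edgeR adjusted p under 0.05. Of all probes 24.6% were lower in liver, 4.81% in heart, 7.7% in ovary and 15% in lung. H2-T23, a non-classical class I gene, fell by 0.91 ± 0.09 in liver, by 0.62 in heart, by 0.62 in ovary and by 0.91 in lung on the log2 scale, with edgeR adjusted p of 2.64e-13, 0.00456, 0.00477 and 4.85e-09. In liver it had 148.6 ± 19 CPM in exposed animals, against 278 ± 47 CPM in control animals, so its change was smaller than that of H2-aa there. In lung the change of H2-T23 was the larger, beside −0.58 for H2-aa and −0.55 for Cd74. H2-q7, another class I gene, changed in lung by −1.05 ± 0.16 (log2, edgeR adjusted p = 4.6e-07). H2-k1, a classical class I gene, fell by 0.70 in liver, 0.76 in heart and 0.64 in lung (edgeR adjusted p of 4.02e-11, 0.00526 and 0.000268). In kidney 0 of the class I probes passed by edgeR, while 3 were below 0.05 before adjustment and DESeq2 called 2. Leaving out control animal 7 or exposed animal 508 gave 2 calls, and leaving out exposed animal 503 or 504 gave 1. Class I genes are near-identical copies of each other, so reads of these probes may be shared between them and their values are uncertain for any one gene.

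**Figure D5:**
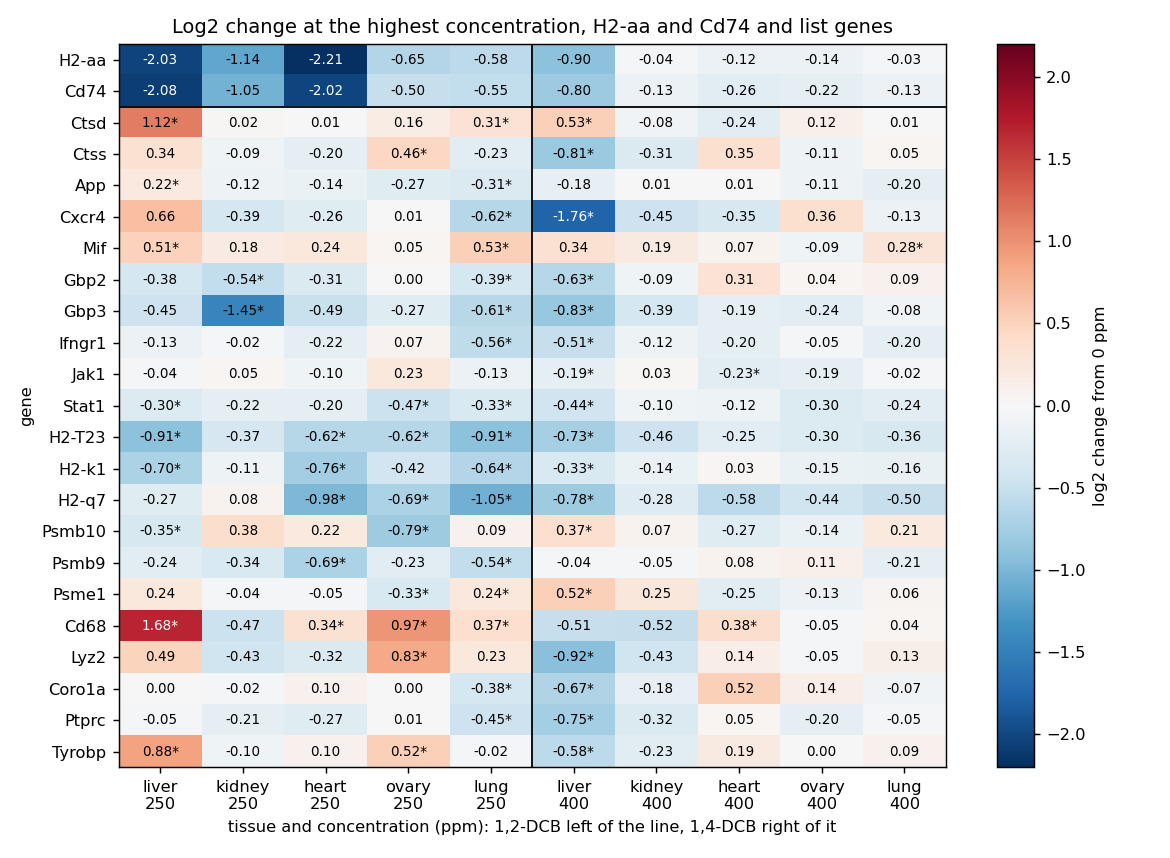
Log2 change at the highest concentration (250 ppm 1,2-DCB, 400 ppm 1,4-DCB) for H2-aa, Cd74 and 21 listed probes that passed in at least 2 of these comparisons. Only the passing probes of smallest p in each list and comparison were considered, so not every passing probe is drawn. Stars mark edgeR adjusted p under 0.05. No star is drawn for H2-aa and Cd74, which were not tested.

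Markers of the cells that carry class II did not all move with H2-aa and Cd74. In liver at 250 ppm 1,2-DCB, 3 of 5 probes of the macrophage and monocyte list were higher and 0 lower, where 25.1% of all probes were higher. They were both probes of Ccr2, the receptor of recruited monocytes, at 2.10 ± 0.33 and 1.98 ± 0.33, and Cd68, a lysosomal protein of macrophages, at 1.68 ± 0.20 (log2, edgeR adjusted p of 3.3e-07, 8.4e-07 and 1.61e-10). The summed list had 291, 975 and 1470 CPM (lowest, median and highest) in exposed livers, against 312, 422 and 1639 CPM in control livers. Ptprc had 26 ± 11.3 CPM in exposed livers, against 27 ± 17.5 CPM in control livers (edgeR adjusted p = 0.859). Of 8 leukocyte probes 1 was higher, Tyrobp, at 0.88 ± 0.19 (log2, edgeR adjusted p = 7.88e-05), and 0 lower, and 3 passed without control animal 4. The summed leukocyte list had 82.2, 192 and 274 CPM in exposed livers, against 93.7, 108.7 and 243 CPM in control livers. B-cell markers summed to 1.56, 3.85 and 8.23 CPM, against 2.51, 3.52 and 8.05 CPM, and Ccr7, the dendritic-cell marker used, was at or near 0 in liver. The part of these cells in the class II level was not tested.

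In liver at 400 ppm 1,4-DCB the macrophage and leukocyte sums were below the controls together with class II. The macrophage sum had 199.8, 213 and 254 CPM in exposed livers, against 369, 392 and 489 CPM in control livers. Most of that sum was Lyz2, the lysozyme of myeloid cells, which fell to 183 ± 25.7 CPM, against 346 ± 44.6 CPM in control livers (edgeR adjusted p = 0.0128). Ptprc fell by 0.75 ± 0.24 (edgeR adjusted p = 0.0112), 1 of 4 lower of 8 leukocyte probes, where 13.6% of all probes were lower, a count of 2 without animal 505. The part of cell numbers in the lower class II was not tested.

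The other tissues at 250 ppm 1,2-DCB showed a mixed picture. In heart the macrophage sum had 735, 846 and 1347 CPM in exposed animals, against 822, 982 and 2456 CPM in control animals, and the leukocyte sum 92.6, 104 and 141.1 CPM, against 79.6, 96.0 and 208 CPM. Of the macrophage list in heart, Cd68 changed by 0.34 ± 0.11 and Csf1r by −1.63 ± 0.50 (log2, edgeR adjusted p of 0.0388 and 0.0266). Of all heart probes 4.07% were higher and 4.81% lower. Csf1r was low, at 0.29 CPM in exposed and 0.95 CPM in control hearts. In kidney the macrophage sum had 99.4, 145.2 and 182 CPM in exposed animals, against 136.8, 179 and 233 CPM in control animals, and 0 of 6 probes passed by edgeR, with 0 below 0.05 before adjustment and 0 called by DESeq2. In ovary Cd68 and Lyz2 rose by 0.97 ± 0.16 and 0.83 ± 0.17 (edgeR adjusted p of 4.63e-05 and 0.000672). In lung, where 15% of all probes were lower, only Cd86 and Cd83 passed of 4 costimulation probes. These surface proteins of activated antigen-presenting cells fell by 1.17 ± 0.16 and 1.02 ± 0.29 on the log2 scale (edgeR adjusted p of 3.45e-08 and 0.0044). Cd83 was low, at 1.10 CPM in exposed and 2.23 CPM in control lungs. The summed costimulation list had a median of 76.6 CPM in exposed lungs, against 91.2 CPM in control lungs. Ccr7, a receptor of migrating dendritic cells, fell by 0.73 ± 0.22 in lung (edgeR adjusted p = 0.00646). Ptprc fell there by 0.45 ± 0.11 (edgeR adjusted p = 0.00101), while the summed macrophage list had 38064, 54772 and 64202 CPM in exposed lungs, against 37581, 44635 and 62197 CPM in control lungs. Of that list Cd68 rose in lung by 0.37 ± 0.12 (log2, edgeR adjusted p = 0.0157), where 17.6% of all probes were higher. The part of these cells was not tested.

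Between the isomers at 1 and 10 ppm, 1 listed probe differed by edgeR adjusted p under 0.05. It was Gbp3 in kidney at 10 ppm, with a difference in change of 1.04 (edgeR adjusted p = 0.0271), 1 of 59 listed probes tested there, where 0.22% of all probes passed. That call was lost with all 360 libraries and with the compared groups alone, each giving 0 listed probes. In the other 9 comparisons 0 listed probes passed by edgeR and between 0 and 14 had an unadjusted p under 0.05. The count of 14 was of 57 listed probes in ovary at 10 ppm, where 234 of all 2713 probes had an unadjusted edgeR p under 0.05. Of all probes, 1.58% passed in liver, 1.14% in heart and 0.363% in lung at 10 ppm, and 0% in the remaining ones.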

How the data were processed

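TempO-Seq detector oligos were counted in liver, kidney, heart, ovary and lung RNA. The deposited table holds whole-number counts per probe that the authors adjusted for probe attenuation but did not scale between libraries. Bowtie 1.3.1 is named per the submitters' processing notes, and the reference it was run against is not given in the sources used here. For 59 probes all deposited counts were multiples of a factor between 2 and 21, which is 2 for Cd74, and H2-aa showed none. These factors were inferred from the values.

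Groups, animals and the used or not used status came from the labels, which name no batch. The comparisons use 326 of 360 libraries, each 1 animal. Per tissue, probes low in all 12 groups were removed (filterByExpr), libraries scaled by TMM, and one edgeR 4.0.16 quasi-likelihood model (R 4.3.3, limma 3.58.1) fitted over all 12 groups. P-values were Benjamini-Hochberg adjusted over all probes of a tissue, with a threshold of 0.05. CPM uses effective library sizes, and log2 CPM has a prior count of 2. SE is the log2 change over the root of F. DESeq2 1.42.0 was an alternative. Correlations used 100000 permutations. The model was tested on simulated data. H2-aa, Cd74 and the gene lists were chosen with earlier results of these data known. Passing list genes at the highest concentration were named from those of smallest p in each list and comparison, with stable calls preferred. The named calls can therefore look more stable than the lists as a whole. Other alternatives were RLE scaling, total counts, no filter, attenuation undone, 1 compound at a time, all 360 libraries and leaving out each animal.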

Additional observations from a re-analysis of the deposited data

Results flagged for a closer look

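Single libraries stood far from the rest of their group, by the gap to the nearest library over the group's range on log2 CPM. In 57 groups tested for each gene this found 7 libraries for H2-aa and 9 for Cd74, where chance gives about 1 in 20, and all but 2 were on the high side. For H2-aa they were control heart animal 4 of the 1,2-DCB set at 204.4 CPM, control kidney animal 2 of the 1,4-DCB set at 205.6 CPM and, under 1,2-DCB, liver animal 205 at 10 ppm (44.65 CPM), heart animal 103 at 1 ppm (61.5 CPM) and heart animal 203 at 10 ppm (42.04 CPM). Under 1,4-DCB, H2-aa stood apart in liver animal 402 at 150 ppm (39.99 CPM) and heart animal 303 at 50 ppm (37.43 CPM).

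Cd74 stood apart in the same animal 4 in heart (2242 CPM) and in liver (1783 CPM), in animal 2 in kidney (2878 CPM) and in animal 505 in kidney at 400 ppm 1,4-DCB (2960 CPM). It also did so under 1,2-DCB in kidney animal 103 at 1 ppm (1741 CPM), heart animal 203 at 10 ppm (558.7 CPM) and, on the low side, lung animal 503 at 250 ppm (5873 CPM). Under 1,4-DCB the libraries were kidney animal 403 at 150 ppm, on the low side (856.1 CPM), and lung animal 102 at 1 ppm (10240 CPM).

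Some libraries that the submitters had set aside carried more class II signal than the used controls of their set, as CPM of the deposited total. In the 1,2-DCB control kidneys H2-aa was 131.8, 418.2, 123.4 and 152.3 CPM in animals 1, 4, 6 and 9, and Cd74 was 4880 CPM in animal 4 and 1579 CPM in animal 9. H2-aa was 129.3 CPM in liver animal 105 at 1 ppm 1,2-DCB and 1069 CPM in lung animal 505 at 250 ppm 1,2-DCB. Cd74 was 913.7 CPM in control liver animal 9 of the 1,4-DCB set. The difference between isomers passed the test for Gbp3 in kidney at 10 ppm, at 1.04 on the log2 scale, and no longer did so with all 360 libraries or with the compared groups alone.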

How the results depend on the processing

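With all 360 libraries the kidney changes at 250 ppm 1,2-DCB were −1.69 for H2-aa and −1.50 for Cd74, those at 1 to 100 ppm lay between −0.66 and −0.30 for H2-aa and between −0.73 and −0.36 for Cd74, and the kidney isomer differences were 0.31 and 0.30 at 1 ppm and 0.33 and 0.38 at 10 ppm, with the opposite sign. With them the listed probes past the test between isomers numbered 1 in liver at 1 ppm, 0 in kidney at 10 ppm and 1 in lung at 1 ppm. In lung at 250 ppm H2-aa changed by −0.31, the class II pathway count was 1, and Cd3g turned to 2.33. The within-group r of H2-aa and Cd74 in liver was 0.36. In liver at 250 ppm that count was 2 with RLE scaling, no filter, attenuation undone, animals of the same compound or DESeq2. In ovary it was 0 with animals of the same compound, and the kidney isomer count at 10 ppm was 0 with the compared groups alone. Leaving out 1 animal gave 1 to 3 in liver and 1 to 2 in lung at 250 ppm, and without control animal 2 the Cd74 kidney isomer difference at 10 ppm was 0.12. Leaving out the high control animals was added after seeing the data. No alternative reversed the sign of the 250 ppm 1,2-DCB changes of H2-aa and Cd74. The cause of these shifts was not tested. No paired analysis was possible because exposed and control groups hold different animals that share no number, and the same number in the sets of both compounds was taken to name different animals. Kidney rests on the fewest libraries, and groups of 2 to 10 animals limit the precision.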

Other observations

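Class II levels of the same animal were compared between tissues, a comparison chosen after the data were seen. The deviations of an animal's log2 CPM from its group mean were correlated between tissues for both genes, 20 relations in all, with permutation p adjusted over them by Benjamini-Hochberg, and 4 of the 20 had adjusted p under 0.05 for r. H2-aa in liver and lung had r of 0.63 and rho of 0.59 (59 animals, adjusted permutation p of 2e-04 for each), and r was 0.57 without the 2 animals farthest from the median in liver. H2-aa in liver and heart had r of 0.49 and rho of 0.40 (61 animals, adjusted permutation p of 0.0031 and 0.023), with r of 0.34 without the 2 farthest animals. Cd74 in liver and heart had r of 0.51 and rho of 0.40 (61 animals, adjusted permutation p of 0.0186 and 0.0291), with r of 0.28 without the 2 farthest animals. Cd74 in heart and lung had r of 0.47 and rho of 0.35 (70 animals, adjusted permutation p of 0.0186 and 0.0291), with r of 0.30 without the 2 farthest animals. Some relations with kidney had an adjusted permutation p under 0.05 for rho but not for r. Cd74 in liver and kidney had r of 0.26 and rho of 0.46 (43 animals, adjusted permutation p of 0.101 and 0.0212). Cd74 in kidney and lung had r of 0.33 and rho of 0.40 (49 animals, adjusted permutation p of 0.101 and 0.0312). For H2-aa in ovary and lung r was −0.02 and rho −0.06 (70 animals, adjusted permutation p of 0.918 and 0.674).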
